A study of Sus scrofa with 2 samples.

Results

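The cells described here were granulosa cells of 2 pig antral follicles with many transcripts of SCG2 and some of SPP1, ALDH1A2 or CXCL14, the 3 genes called companions below. They were selected on these same measurements: 20 or more unique molecular identifiers (UMIs, each standing for 1 captured transcript) of SCG2 and 2 or more of the companions together, among barcodes with 2000 to 5000 detected genes and under 7% of UMIs from 13 mitochondrial genes. In the follicle AF75 32 of 9362 barcodes inside these limits were members, and in AF76 48 of 7843, so 80 of 17205 in all. They were set against barcodes inside the limits with fewer than 10 SCG2 UMIs and none of a companion, 7785 in AF75 and 6463 in AF76 (comparison barcodes). The remaining 1545 and 1332 barcodes inside the limits belonged to neither set.

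Both follicles came from 1 Landrace × Yorkshire pig at 210 days of age, injected with 5 IU of pregnant mare serum gonadotropin 48 h before the ovaries were collected. Follicles over 7 mm wide were punctured, and the granulosa cells in the flushed fluid, together with cells freed from the cumulus by hyaluronidase, were sequenced with the 10x Genomics 3' v3.1 chemistry, 1 library per follicle. No group was left untreated, and no other genotype or dose was present. Each follicle is a single library and the members were chosen by their own transcripts, so every contrast below is a description without a p-value. Levels are UMIs per 1000000 UMIs (CPM) of the summed barcodes, with exact Poisson 95% intervals, ratios carry exact conditional intervals and shares Clopper-Pearson intervals, and all of these cover counting error only.

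Secretogranin II, the product of SCG2, belongs to the granins, acidic proteins packed into the granules of the regulated secretory pathway and cut there into peptides such as secretoneurin. SPP1 encodes osteopontin, a secreted phosphoprotein that binds integrins and CD44. ALDH1A2 makes retinoic acid from retinal, and CXCL14 is a chemokine. Mural granulosa cells line the follicle wall, convert androgen to oestrogen, respond to the gonadotropin surge and turn into luteal cells after ovulation.

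SCG2 (ENSSSCG00000023032) lies on the minus strand of chromosome 15 at 125420773 to 125426303 of Sscrofa11.1, SPP1 (ENSSSCG00000009216) on chromosome 8 at 131077786 to 131085334, ALDH1A2 (ENSSSCG00000025578) on chromosome 1 at 113932722 to 114037059, and CXCL14 on chromosome 2 at 137803988 to 137813118. The 250 bases before the start of each gene in the RefSeq annotation of Sscrofa11.1 were searched on both strands for TGACGTCA, the palindromic cyclic AMP response element, for TGANTCA, the AP-1 site, and for ACGTG, the core of the hypoxia response element. No printed match overlaps another. Upstream sequence is shown for SCG2 and CXCL14, the rule genes that held a motif, and for SLC24A1, the gene with the largest mean log2 ratio of members to comparison barcodes, each 5′ to 3′ on the gene's own strand with motif letters in capitals.
SCG2, chr15:125426304-125426553, minus strand: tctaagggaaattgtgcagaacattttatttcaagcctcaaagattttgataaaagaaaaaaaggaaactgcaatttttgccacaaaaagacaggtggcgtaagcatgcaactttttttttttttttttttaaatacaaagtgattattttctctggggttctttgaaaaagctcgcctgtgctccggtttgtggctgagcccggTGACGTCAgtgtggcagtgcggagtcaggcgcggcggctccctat
CXCL14, chr2:137813119-137813368, minus strand: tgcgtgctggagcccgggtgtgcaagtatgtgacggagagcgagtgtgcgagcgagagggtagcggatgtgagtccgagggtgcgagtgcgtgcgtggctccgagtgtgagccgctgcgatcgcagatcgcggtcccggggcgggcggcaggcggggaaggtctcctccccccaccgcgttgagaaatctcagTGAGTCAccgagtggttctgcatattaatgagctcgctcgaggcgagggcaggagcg
SLC24A1, chr1:163602973-163603222, plus strand: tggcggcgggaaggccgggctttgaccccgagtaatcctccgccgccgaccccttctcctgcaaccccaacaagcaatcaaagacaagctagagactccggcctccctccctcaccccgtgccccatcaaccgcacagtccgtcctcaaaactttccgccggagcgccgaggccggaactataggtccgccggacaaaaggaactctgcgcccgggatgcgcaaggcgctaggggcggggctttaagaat
The SCG2 sequence held TGACGTCA starting 45 bases before the gene, and CXCL14 held TGANTCA starting 57 bases before it. SPP1 and ALDH1A2 held none of the letters in this window. Over 19506 protein-coding genes on chromosomes, 1.70% of such windows held TGACGTCA, 5.23% TGANTCA and 18.7% ACGTG. Of the 20 genes that were at least 2-fold higher in the members (below), 19 were matched to a window, and 1 held TGACGTCA (MED14), 1 TGANTCA (RASGRF2) and 5 ACGTG (TM4SF1, RASGRF2, RAB6B, ABHD4 and QRFPR). C12orf75 was not matched. A match is a description of letters and says nothing of a factor's binding.

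The members made up 0.342% (0.234 to 0.482) of barcodes inside the limits in AF75 and 0.612% (0.452 to 0.811) in AF76. The SCG2 requirement alone was met by 487 barcodes (5.20%) in AF75 and 681 (8.68%) in AF76, and the companion requirement alone by 400 (4.27%) and 281 (3.58%). Of the barcodes with 20 or more SCG2 UMIs, 6.57% (4.54 to 9.15) in AF75 and 7.05% (5.24 to 9.24) in AF76 also met the companion requirement. Below 10 SCG2 UMIs the companion requirement was met by 4.09% (3.69 to 4.53) and 3.24% (2.84 to 3.68). Most SCG2-high barcodes thus lacked the companions, and most companion-positive barcodes had little SCG2.

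**Figure D1:**
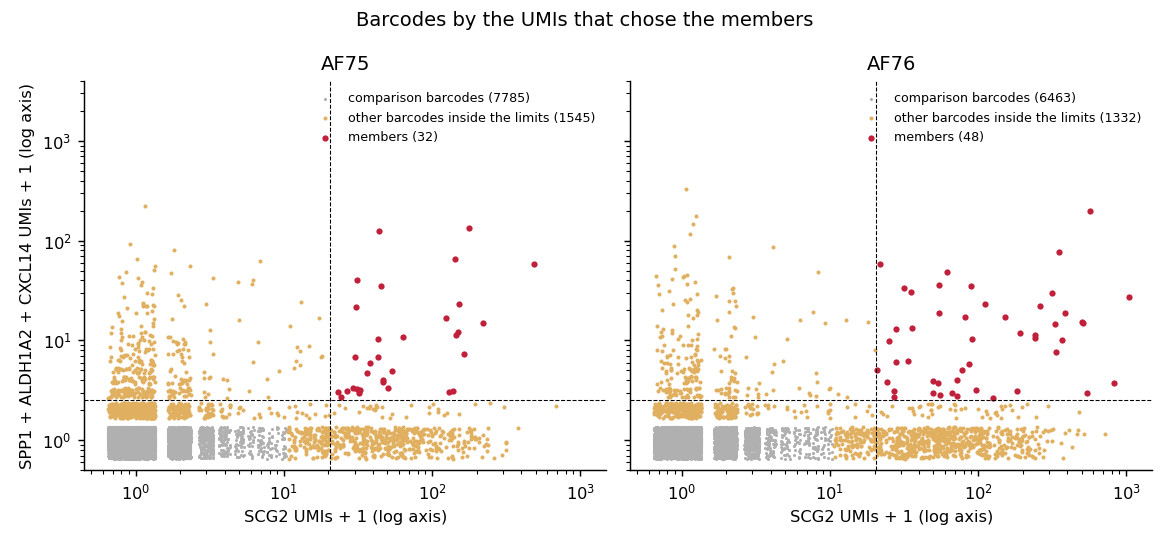
Each point is a barcode inside the limits, placed by its SCG2 UMIs plus 1 (horizontal, log axis) and its summed SPP1, ALDH1A2 and CXCL14 UMIs plus 1 (vertical, log axis), with a small random shift within each whole number. Dashed lines mark 20 SCG2 UMIs and 2 companion UMIs. The 32 members of AF75 and 48 of AF76 form a thin upper right field with no gap to its left or below it.

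No gap in the data marks the edges of this set. Just outside the companion requirement, 31 barcodes of AF75 and 47 of AF76 had 20 or more SCG2 UMIs and exactly 1 companion UMI, and just inside it 10 and 10 members had exactly 2. At the SCG2 edge, 1 barcode of AF76 with 2 or more companion UMIs had 19 SCG2 UMIs and was left out, while 1 had 20 and 1 had 21. In AF75 the lowest member had 22, and none stood at 18 to 21. Barcodes that met both UMI requirements outside the gene and mitochondrial limits numbered 4 in AF75 and 7 in AF76.

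SCG2 UMIs per member ran from 22 to 485 in AF75 with a median of 45, and from 20 to 1038 in AF76 with a median of 83.5. Summed over members, SCG2 stood at 6639 CPM (6396 to 6890) in AF75 and 11656 CPM (11416 to 11900) in AF76, against 34.9 and 35.4 CPM in the comparison barcodes. These values only restate the choice. The members held 421739 UMIs in AF75 and 771093 in AF76, so 3 UMIs, the limit that a count of 0 allows, stand for 7.11 and 3.89 CPM.

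The companions did not come as a set. In AF75 23 of 32 members had UMIs of 1 companion only, 8 of 2 companions and 1 of all 3, and in AF76 37 of 48 had 1 companion and 11 had 2. SPP1 UMIs were found in 8 members of AF75 and 32 of AF76, ALDH1A2 UMIs in 16 and 10, and CXCL14 UMIs in 18 and 17. Of the members of AF75, 24 thus had no SPP1 UMI, and the set is called by its rule here rather than SPP1 positive. The plot of companion UMIs shows that AF76 was led by SPP1 and AF75 by CXCL14 and ALDH1A2.

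**Figure D2:**
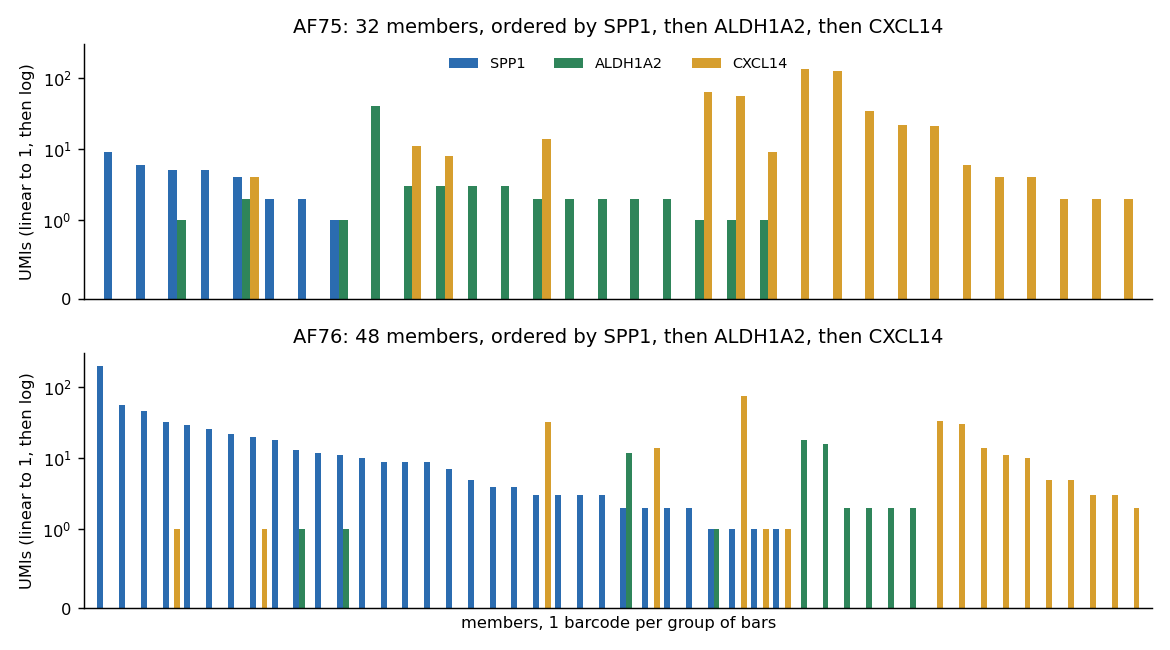
UMIs of SPP1 (blue), ALDH1A2 (green) and CXCL14 (yellow) in each member, 1 group of bars per barcode, on an axis that is linear to 1 and logarithmic above. SPP1 fills 8 of 32 groups in AF75 and 32 of 48 in AF76, and most groups carry 1 colour.

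Pooled SPP1 was 80.6 CPM (55.8 to 113) in the members of AF75 and 735 CPM (676 to 798) in those of AF76, where 1 barcode held 199 of the 567 UMIs. ALDH1A2 was 164 CPM (127 to 207) and 73.9 CPM (56.0 to 95.8), with 40 of 69 UMIs in 1 barcode of AF75. CXCL14 was 1228 CPM (1125 to 1339) and 315 CPM (277 to 357). The comparison barcodes had none of these UMIs by construction.

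To see each rule gene where it had not chosen the barcodes, the choice was repeated with that gene left out. Barcodes chosen by SCG2, SPP1 and CXCL14 had ALDH1A2 levels of 43.1 CPM (AF75) and 21.3 CPM (AF76), against 7.37 and 2.51 CPM in barcodes low for those genes, a ratio of 5.85 (3.18 to 9.88) and 8.50 (4.57 to 14.6). In AF76, however, 12 of the 14 ALDH1A2 UMIs lay in 1 barcode. CXCL14 was 162 and 85.0 CPM against 20.9 and 17.5 CPM, a ratio of 7.75 (5.44 to 10.7) and 4.85 (3.56 to 6.46), carried by 4 of 18 and 4 of 35 barcodes, with 32 of the 48 UMIs of AF76 in 1 barcode. SPP1 stood at 12.3 CPM in AF75, with all 4 UMIs in 1 of 25 barcodes, and its ratio of 2.12 (0.576 to 5.46) was not distinguishable from 1. In AF76 SPP1 was 26.4 against 9.62 CPM, a ratio of 2.74 (1.18 to 5.42), in 4 of 20 barcodes. SCG2 in barcodes chosen by companions alone was 586 against 359 CPM in AF75, a ratio of 1.63 (1.57 to 1.69). In AF76 it was 2077 against 556 CPM, a ratio of 3.73 (3.65 to 3.82). The members among the chosen barcodes held 2800 of the 3113 SCG2 UMIs in AF75 and 8988 of the 9227 in AF76. A single barcode held 485 of them in AF75 and 1038 in AF76. An SCG2 UMI was found in 142 of 400 chosen barcodes of AF75 and 126 of 281 of AF76. Without companions it was found in 2504 of 8342 and 2541 of 7170 barcodes.

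The granulosa identity list stood at a summed 22633 CPM in members and 23342 CPM in comparison barcodes of AF75, and at 25443 and 24606 CPM in AF76. Most of it was INHA, the inhibin alpha subunit, with 19277 CPM in members and 19899 CPM in comparison barcodes of AF75 and 23620 and 22956 CPM in AF76. Of the 8 identity genes over the filter, FST, the activin-binding follistatin, had ratios of 1.33 (1.05 to 1.65) and 1.28 (1.09 to 1.51), and NR5A2 also lay above 1. INHBB, an inhibin and activin subunit, had 0.605 (0.364 to 0.945) and 0.501 (0.229 to 0.953). The mural granulosa list of 6 genes was lower in members, at 3569 against 5762 CPM in AF75 and 4944 against 8874 CPM in AF76, and the intervals of the ratios of AREG, TGFB3, IL33 and LIMCH1 lay below 1 in both follicles. AREG, a ligand of the EGF receptor that relays the luteinizing hormone signal, was 1197 against 2790 CPM in AF75 and 2799 against 5293 CPM in AF76. The members thus held mural markers, 4 of the 6 with intervals below the comparison barcodes in both follicles. The highest log2 ratio in the list was -0.18 in AF75 and 0.13 in AF76, so not every mural gene was lower in AF76. Of all 5415 genes over the filter, 152 had intervals below 1 in both follicles. The comparison barcodes were chosen without regard to mural or cumulus markers. Without those marked by cumulus, CEMIP or cell division genes, 4696 of 7785 remained in AF75 and 5080 of 6463 in AF76. The cumulus list was 1776 against 3279 CPM in AF75 and 905 against 663 CPM in AF76. VCAN, which encodes a proteoglycan of the cumulus matrix, lay on opposite sides in the follicles, with a ratio of 0.638 (0.587 to 0.693) in AF75 and 1.70 (1.56 to 1.85) in AF76.

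Leukocyte and oocyte markers were near 0, while theca and endothelial lists held UMIs. Summed over 8 genes, leukocyte markers were 2.37 against 2.16 CPM in AF75 and 3.89 against 6.19 CPM in AF76, with PTPRC, LAPTM5, CSF1R and C1QA at 0 UMIs in the members of both follicles. Oocyte markers were 2.37 and 5.19 CPM in members against 5.08 and 5.12 CPM. The theca and stromal list summed to 353 against 321 CPM and 809 against 521 CPM, nearly all of it INSL3 (339 and 792 CPM in members), while DCN, LUM, COL1A1 and COL3A1 had no UMI in a member. Endothelial markers were 23.7 and 38.9 CPM against 50.1 and 56.8 CPM, led by EGFL7. Red blood cell markers had no UMI in the members of AF75 and in AF76 stood at 11.7 CPM against 54.3 CPM. The list of CEMIP granulosa genes stood at 7.78 CPM in the members of AF76 and 142 CPM in comparison barcodes of that follicle.

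The members held somewhat more UMIs than the comparison barcodes, with medians of 12081.5 against 11121 in AF75 and 15516 against 13706 in AF76. Detected genes had medians of 3299 against 3138 and 3707 against 3453, and mitochondrial shares medians of 2.56% against 2.57% and 2.78% against 2.96%. Of the members, 18.8% in AF75 (6 of 32) and 8.33% in AF76 (4 of 48) were among the 6.9% of barcodes with the highest Scrublet doublet scores, as were 6.38% and 6.50% of the comparison barcodes. The part of doublets in the results was not tested beyond repeating them without these barcodes. The libraries shared 56 barcode sequences, of which 1 belonged to a member (in AF76).

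Of 5415 genes with a mean of at least 20 CPM over the 4 pools, 20 (0.369%) were 2-fold or more higher in the members of both follicles and 6 (0.111%) were 2-fold or more lower, a measure of size and not of significance. The member pools count in that mean, so a gene could pass the filter through its level in members. CAVIN2, RASGRF2, EDNRB and TOP2A, all among the 20, stood under 20 CPM in the comparison barcodes of both follicles. The counts of higher and lower genes thus cannot be weighed against each other. The median log2 ratio over the 5415 genes was 0.03 in AF75 and -0.05 in AF76. In the plot of ratios in one follicle against the other, SLC24A1 and C12orf75 lie well past the 2-fold lines, and others such as MED14 sit on them with no gap from the remaining genes. The genes with the largest mean log2 ratios were SLC24A1, C12orf75, ESM1, CAVIN2, PLOD2, DCLK1 and TM4SF1.

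**Figure D3:**
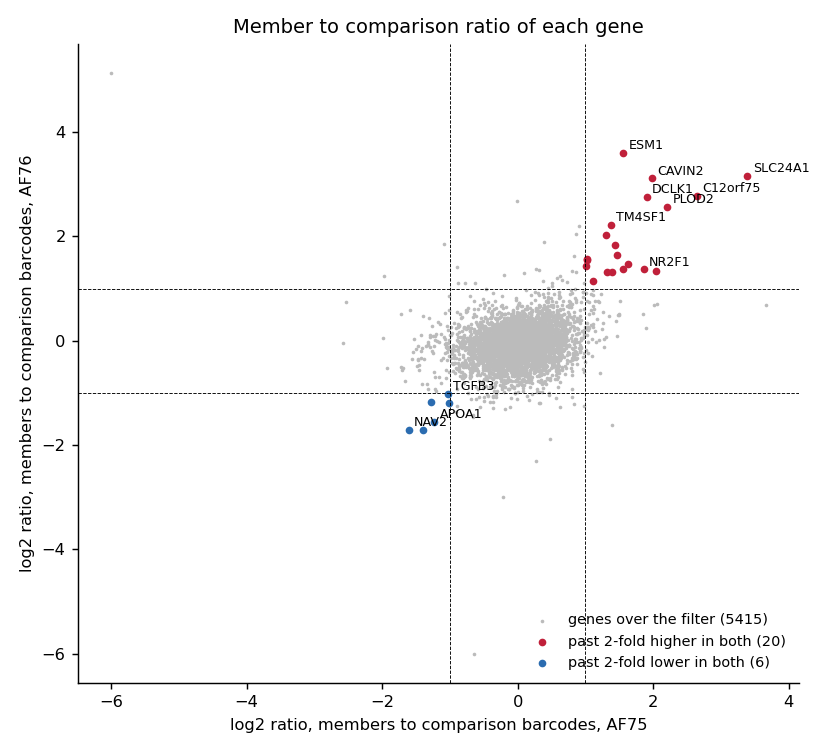
Log2 ratio of members to comparison barcodes in AF75 (horizontal) and AF76 (vertical) for 5415 genes, with dashed lines at 2-fold. The 20 genes past 2-fold higher in both follicles are red and the 6 past 2-fold lower are blue. SHAS2 and EMB, without member UMIs in 1 follicle, are drawn at the edge, and SLC24A1 lies farthest out along the diagonal.

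SLC24A1 encodes a sodium, calcium and potassium exchanger known from rod photoreceptors and lies on chromosome 1 at 163603223 to 163662071. Members held 398 CPM (340 to 463) in AF75 and 253 CPM (219 to 291) in AF76, and comparison barcodes 38.0 and 28.2 CPM. The ratios were 10.5 (8.94 to 12.3) and 8.97 (7.71 to 10.4). A single member of AF75 held 108 of its 168 UMIs, and without that barcode the ratio was 3.91 (2.98 to 5.04). SLC24A1 UMIs were found in 20 of 32 and 27 of 48 members, against 19.6% and 18.9% of comparison barcodes.

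PLOD2, a lysyl hydroxylase that prepares collagen for cross-linking, was 247 CPM (201 to 299) and 305 CPM (267 to 346) in members, against 53.5 and 51.3 CPM. Its ratios were 4.61 (3.76 to 5.60) and 5.94 (5.19 to 6.78), and 3.79 and 5.27 without the member richest in it. C12orf75 was 223 CPM (180 to 273) and 189 CPM (160 to 223) against 35.5 and 27.5 CPM, a ratio of 6.28 (5.06 to 7.71) and 6.88 (5.78 to 8.13). No member of AF75 held more than 9 of its 94 UMIs, so its level was spread over the set. DCLK1, a kinase that binds microtubules, was 820 CPM (736 to 912) and 1080 CPM (1008 to 1156) against 219 and 159 CPM, with ratios of 3.75 (3.36 to 4.17) and 6.79 (6.33 to 7.29). UMIs of DCLK1 were found in 23 of 32 and 37 of 48 members.

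ESM1, a secreted proteoglycan known from sprouting endothelium, differed in size between the follicles, at 107 CPM (77.8 to 143) in AF75 and 490 CPM (442 to 542) in AF76 against 36.2 and 40.3 CPM. Its ratio was 2.94 (2.14 to 3.95) in AF75 and 12.2 (10.9 to 13.5) in AF76, where 1 member held 185 of 378 UMIs and the ratio without it was 6.37. TM4SF1, a membrane protein of the tetraspanin-like L6 family, was the most abundant of the 20, at 2172 CPM (2034 to 2317) and 3531 CPM (3400 to 3667) against 836 and 756 CPM. Its ratios were 2.60 (2.43 to 2.77) and 4.67 (4.49 to 4.85). CAVIN2, which shapes caveolae, rested on few barcodes in AF75, where 7 of 9 UMIs lay in 1 member and the ratio went from 3.96 (1.80 to 7.57) to 0.900 without it. In AF76 its ratio was 8.65 (6.45 to 11.4) with UMIs in 9 of 48 members.

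ITGB5, an integrin beta subunit that pairs with ITGAV to bind osteopontin and vitronectin, was 87.7 and 54.5 CPM in members against 21.4 and 21.5 CPM, a ratio of 4.10 (2.88 to 5.67) and 2.53 (1.82 to 3.44). ITGA6, a laminin receptor subunit, was 54.5 and 62.2 CPM in members, a ratio of 2.72 (1.72 to 4.09) and 3.58 (2.62 to 4.76). NR2F1, an orphan nuclear receptor that competes with retinoid receptors for their sites, had ratios of 3.62 (2.46 to 5.16) and 2.58 (1.78 to 3.62), and 1.77 in AF76 without 1 member. RAB6B, a small GTPase of Golgi transport, had ratios of 3.09 (2.45 to 3.86) and 2.79 (2.28 to 3.39), with UMIs in 21 of 32 and 29 of 48 members.

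RASGRF2, an exchange factor for Ras, had ratios of 2.46 (1.31 to 4.23) and 4.07 (3.07 to 5.28), and SGK1, a kinase that regulates ion transport, 2.76 (1.87 to 3.92) and 3.12 (2.16 to 4.36). OSGIN2 stood at 92.5 and 89.5 CPM in members, with ratios of 2.94 (2.08 to 4.03) and 2.61 (2.03 to 3.31). ABHD4, a lipase of N-acyl phospholipids, stood at 166 and 127 CPM, with ratios of 2.63 (2.05 to 3.33) and 2.48 (2.01 to 3.03). The remaining 5 of the 20 were SPOCK2, QRFPR, MED14, EDNRB and TOP2A, with ratios from 2.00 to 2.95. Without the richest member the ratio of EDNRB, an endothelin receptor, was 1.07 in AF75. TOP2A, an enzyme of dividing cells, had UMIs in 5 of 32 and 2 of 48 members and ratios of 0.813 and 0.850 without the richest.

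The share of barcodes with a UMI is set by depth and by free RNA as well as by the cell. Leukocyte-like barcodes, with UMIs of 3 or more of the 8 leukocyte markers and 10 or more such UMIs in all, numbered 4 in AF75 (median 18452.5 UMIs) and 26 in AF76 (median 4017.5 UMIs). In AF76 11.5% of them carried a UMI of SLC24A1, 11.5% of PLOD2 and of DCLK1, 15.4% of C12orf75 and 3.85% of SCG2. Among the members of AF76 the shares were 56.3% for SLC24A1, 64.6% for PLOD2, 77.1% for DCLK1 and 58.3% for C12orf75 at a median depth of 15516 UMIs. The 4 leukocyte-like barcodes of AF75 were too few for a share, and 3 of them carried SCG2.

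Because the genes below were chosen for their higher level in members, their joint presence in a barcode is a description only. UMIs of all 4 of SLC24A1, C12orf75, PLOD2 and DCLK1 were present in 13 of 32 members of AF75 (40.6%, 23.7 to 59.4) and 15 of 48 of AF76 (31.3%, 18.7 to 46.3). In comparison barcodes the share was 1.63% (1.36 to 1.94) and 1.38% (1.11 to 1.69). None of the 4 was found in 1 member of AF75 and 6 of AF76. Of the 20 higher genes a member carried UMIs of 4 to 15 in AF75, with a median of 10, and of 1 to 16 in AF76, with a median of 8, against a median of 5 in the comparison barcodes of each follicle.

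Of the 6 genes past 2-fold lower, APOA1, the main apolipoprotein of HDL, was the most abundant. Members held 1807 CPM (1681 to 1940) in AF75 and 523 CPM (473 to 576) in AF76, and comparison barcodes 4236 and 1530 CPM, with ratios of 0.427 (0.397 to 0.458) and 0.341 (0.309 to 0.377). UMIs of APOA1 were still present in 32 of 32 and 47 of 48 members. TGFB3, a ligand of the TGF-beta family from the mural list, was 56.9 and 76.5 CPM against 116 and 155 CPM, with ratios of 0.489 (0.313 to 0.728) and 0.493 (0.375 to 0.636). NAV2, a guidance-related cytoskeletal protein, was 49.8 against 152 CPM in AF75 and 3.89 against 12.7 CPM in AF76, the latter on 3 UMIs in the members. MGAM (an intestinal glucosidase) and TRIM27 (a ubiquitin ligase) had 8 to 17 UMIs in the members of a follicle, and ratios from 0.414 to 0.497.

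To see which genes went with SCG2 and which with the companions, barcodes were divided by both requirements. Barcodes with 20 or more SCG2 UMIs and no companion numbered 424 in AF75 and 586 in AF76, and barcodes with fewer than 10 SCG2 UMIs and 2 or more companion UMIs 357 and 228. Of the 5415 genes, 0 (0%) were 2-fold or more above the comparison barcodes in both follicles in the SCG2-only set. In the companion-only set 5 were (0.0923%), namely CENPW, CENPF and TOP2A, genes of dividing cells, with SLC24A1 and C12orf75. The filter used the member and comparison pools, so a gene high only in 1 of these sets could be left out. The SCG2-only set also held 5248330 and 8779464 UMIs and the companion-only set 4743824 and 3581830, more than the members. Counting error puts fewer genes past 2-fold in larger pools. These counts thus cannot be weighed against the 20 higher genes of the members.

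The plot of levels across these sets shows 6 genes chosen for their ratio of members to comparison barcodes, which fixes the place of the members. SLC24A1 in AF75 was 398 CPM in members, 56.6 CPM (50.3 to 63.4) in the SCG2-only set, 83.7 CPM (75.7 to 92.3) in the companion-only set and 38.0 CPM in comparison barcodes. In AF76 it was 253, 49.9 (45.3 to 54.8), 65.9 (57.7 to 74.9) and 28.2 CPM in the same order. In AF75 1 barcode held 108 of the 168 SLC24A1 UMIs of members, and 1 held 78 of the 297 of the SCG2-only set. PLOD2 in the SCG2-only set was 78.9 CPM in AF75 and 48.6 CPM in AF76, the latter a ratio of 0.949 (0.857 to 1.05) to comparison barcodes, and in the companion-only set 98.4 and 100.2 CPM. C12orf75 was 56.0 and 31.9 CPM in the SCG2-only set and 98.0 and 55.6 CPM in the companion-only set. DCLK1 was 424 and 210 CPM in the SCG2-only set and 326 and 295 CPM in the companion-only set. Barcodes with all of SLC24A1, C12orf75, PLOD2 and DCLK1 made up 6.13% and 3.41% of the SCG2-only set and 10.4% and 9.65% of the companion-only set.

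**Figure D4:**
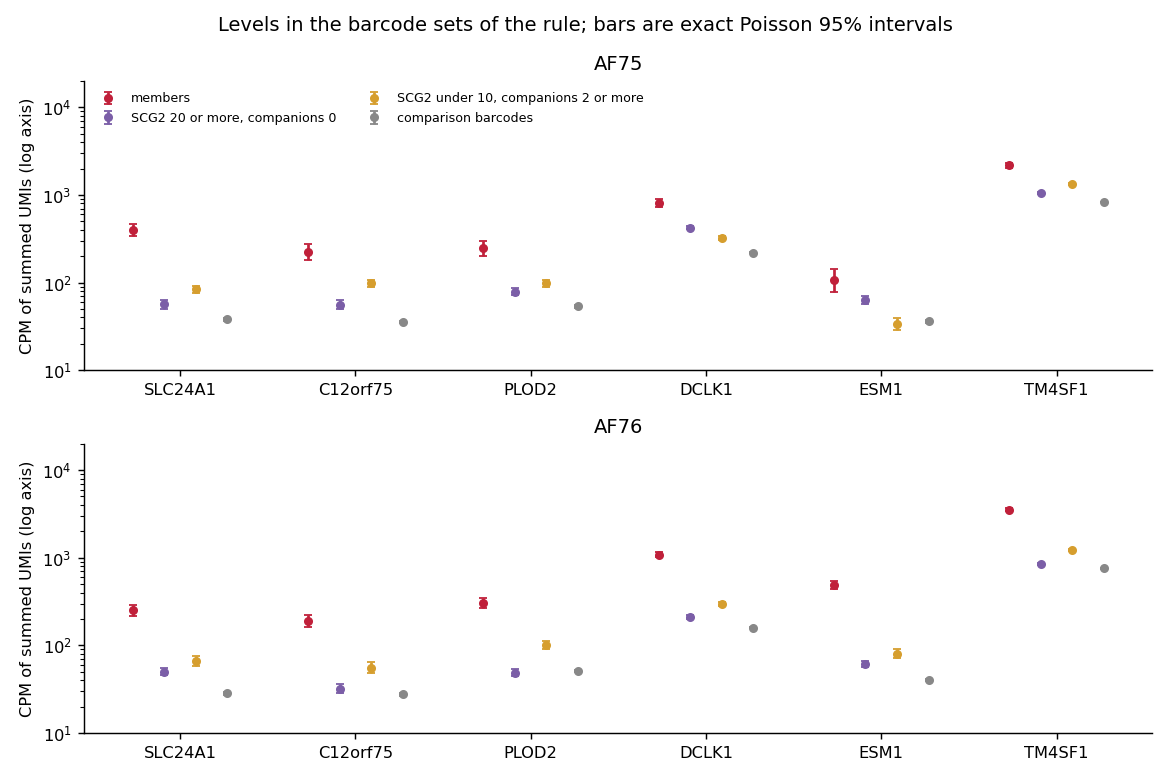
CPM of summed UMIs (vertical, log axis) of 6 genes in members (red), barcodes with 20 or more SCG2 UMIs and no companion (purple), barcodes with under 10 SCG2 UMIs and 2 or more companion UMIs (yellow) and comparison barcodes (grey), with exact Poisson 95% intervals. SLC24A1 in AF75 runs from 398 CPM in members to 38.0 CPM in comparison barcodes, with both single-requirement sets between. There 1 barcode held 108 of the 168 UMIs of members, and 1 held 78 of the 297 UMIs of the purple set.

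Levels also differed with the amount of SCG2. Members with 20 to 49, with 50 to under 150 and with 150 or more SCG2 UMIs numbered 18, 9 and 5 in AF75 and 14, 16 and 18 in AF76. SLC24A1 in these bins was 101 CPM (64.8 to 151), 214 CPM (138 to 315) and 1761 CPM (1459 to 2107) in AF75, the last with 108 of 119 UMIs in 1 barcode. In AF76 it was 20.7 CPM (5.63 to 52.9), 251 CPM (192 to 321) and 391 CPM (326 to 465). PLOD2 ran through 148, 239 and 607 CPM (AF75) and 181, 190 and 464 CPM (AF76) over the same bins. DCLK1 did not follow the order of the bins in AF76, with 780, 610 and 1609 CPM there and 557, 1094 and 1273 CPM in the other follicle. ESM1 in AF76 was 103, 52.5 and 1046 CPM. The top bin of AF75 held only 5 barcodes, and in AF76 the median UMIs per member also differed between bins, at 13790.5, 15394.5 and 18243.5. The part of depth in these levels was not tested.

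**Figure D5:**
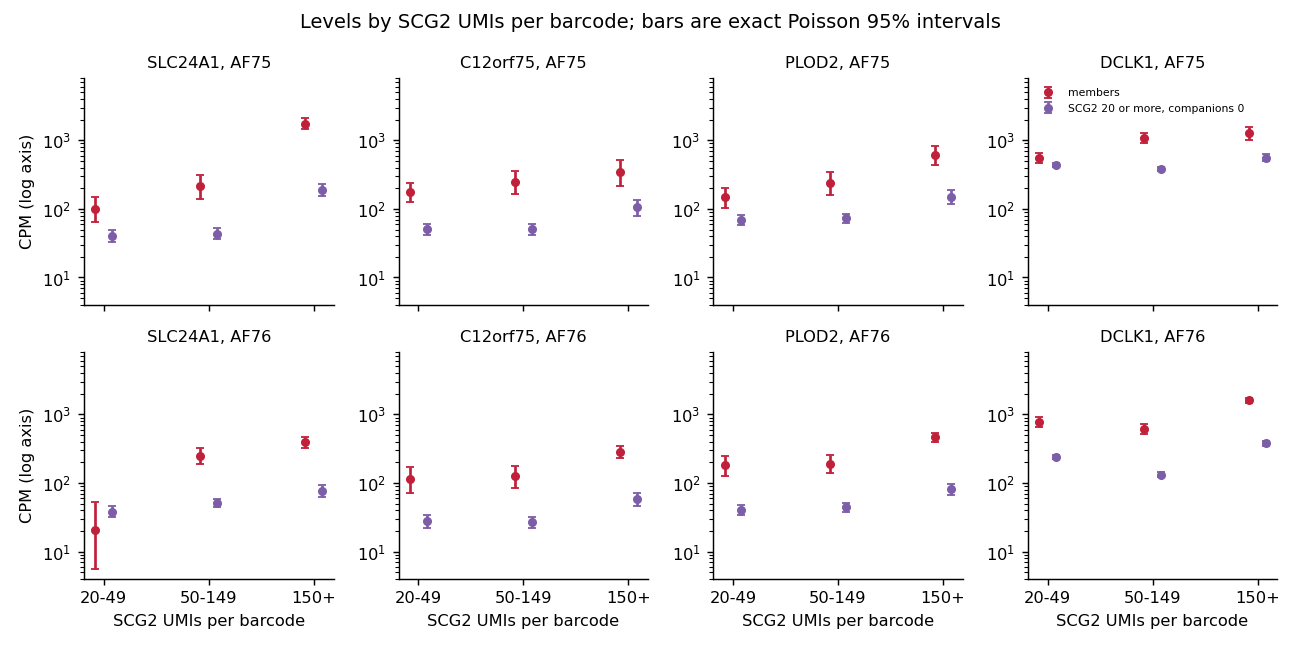
CPM of summed UMIs (vertical, log axis) of SLC24A1, C12orf75, PLOD2 and DCLK1 by SCG2 UMIs per barcode, in members (red) and in barcodes with 20 or more SCG2 UMIs and no companion (purple), with exact Poisson 95% intervals, AF75 above and AF76 below. In the top bin of AF76 PLOD2 is at 464 CPM in members and at 80.6 CPM in barcodes without companions.

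Within the same SCG2 bins the barcodes without companions stood lower for most of these values. The top bin has no upper limit, so SCG2 was not matched in it. The highest SCG2 count in members and in barcodes without companions was 485 and 380 UMIs in AF75 and 1038 and 722 in AF76. With 150 or more SCG2 UMIs the barcodes without companions numbered 41 in AF75 and 86 in AF76. In AF76 they had 80.6 CPM (66.3 to 97.1) of PLOD2 against 464 CPM (393 to 543) in members. In AF75 the intervals for PLOD2 were 118 to 186 CPM and 435 to 823 CPM. C12orf75 was 105 and 58.1 CPM in them against 340 and 282 CPM. In the lowest bin of AF76 SLC24A1 was 38.2 CPM without companions and 20.7 CPM in members, with overlapping intervals.

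The companion that a member carried went with some of these levels. Members with 2 or more SPP1 UMIs numbered 7 in AF75 and 28 in AF76, with 2 or more ALDH1A2 UMIs 11 and 7, and with 2 or more CXCL14 UMIs 18 and 13, with some barcodes in more than 1 set. SLC24A1 was 71.9, 226 and 578 CPM in these sets in AF75 and 219, 342 and 396 CPM in AF76. PLOD2 was 154, 241 and 303 CPM and 246, 359 and 507 CPM. SPP1-positive members stood lowest for both genes in each follicle, although in 3 of these 4 cases the interval overlapped that of the ALDH1A2-positive members. In AF75 1 barcode held 108 of the 141 SLC24A1 UMIs of the CXCL14-positive members, and in AF76 1 held 50 of the 75. How the sets would rank for SLC24A1 without these barcodes was not tested. SCG2 itself had the same order in AF75, with 4880, 7350 and 8591 CPM, and another in AF76, with 13157, 15955 and 8497 CPM. ESM1 in AF76 was 1071 CPM in CXCL14-positive members, with 185 of its UMIs in 1 barcode, 308 CPM in SPP1-positive and 175 CPM in ALDH1A2-positive ones.

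The pathways of the rule genes were described by lists of other genes. Over all 5415 genes 0.369% were past 2-fold higher and 0.111% lower in both follicles. A short list with none past 2-fold, here and below, is thus near that share and says little of its pathway. Of 15 genes of the secretory granule, 4 passed the filter and none was 2-fold higher in both follicles, with a median log2 ratio of 0.24 in AF75 and 0.23 in AF76. PCSK5, a proprotein convertase, was 40.3 against 23.0 CPM and 45.4 against 17.9 CPM, with ratios of 1.75 (1.02 to 2.81) and 2.53 (1.76 to 3.54). PAM, which amidates secreted peptides, had ratios of 1.29 (1.11 to 1.49) and 1.15 (1.03 to 1.28). The other granin measured above the filter, CHGA, was 83.0 against 88.4 CPM and 51.9 against 59.9 CPM, and SCG5, a chaperone of a convertase, 68.8 against 63.9 CPM and 81.7 against 67.8 CPM. SCG3 had no UMI in a member.

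Of 10 osteopontin receptors 5 passed the filter, and ITGB5 alone was past 2-fold. ITGB1 was 1532 against 1654 CPM and 1778 against 2037 CPM, and ITGAV 534 against 597 CPM and 547 against 530 CPM. CD44 was below the comparison barcodes, with ratios of 0.716 (0.606 to 0.840) and 0.797 (0.713 to 0.888). The list's median log2 ratio was -0.14 in AF75 and 0.05 in AF76.

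Of 23 genes of retinoid handling 4 passed the filter, and NR2F1 alone was past 2-fold. RDH11, a retinal reductase, had ratios of 1.35 (1.01 to 1.77) and 1.38 (1.09 to 1.73). NR2F2, the relative of NR2F1, had 1.04 (0.707 to 1.48) and 0.683 (0.457 to 0.982). RBP4, LRAT and CRABP1 had no UMI in a member. The 10 measured genes for chemokines and their receptors summed to 2.37 and 3.89 CPM in members, and CXCR4 and ACKR3 had no UMI in them.

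Of 16 genes of collagen modification 12 passed the filter, and PLOD2 alone was past 2-fold. Its relatives PLOD1 and PLOD3 had ratios of 0.920 (0.753 to 1.11) and 0.893 (0.754 to 1.05), and of 0.997 (0.712 to 1.36) and 0.956 (0.746 to 1.21). LOX, which oxidizes lysines of collagen to start cross-links, was 406 against 521 CPM and 419 against 584 CPM, and P4HA1, a prolyl hydroxylase subunit, 280 against 429 CPM and 281 against 417 CPM, both with intervals of the ratio below 1. Of 14 genes of calcium and cation transport 5 passed the filter and none was past 2-fold. CACNA2D1, an auxiliary subunit of calcium channels, had ratios of 1.95 (1.40 to 2.63) and 1.91 (1.49 to 2.42). SLC24A2 to SLC24A5, the relatives of SLC24A1, had no UMI in a member.

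Steroid synthesis is a main task of mural cells. Of 12 measured genes 10 passed the filter and none was past 2-fold in both follicles, with median log2 ratios of -0.12 and -0.05. Beside 0.369% of all genes higher and 0.111% lower, none of 10 says little of the pathway. CYP11A1, which cleaves the cholesterol side chain, was 1921 against 1681 CPM in AF75 and 2222 against 1689 CPM in AF76, with ratios of 1.14 (1.06 to 1.22) and 1.32 (1.25 to 1.38). NR5A2, a nuclear receptor that drives it, had ratios of 1.38 (1.23 to 1.54) and 1.28 (1.16 to 1.40), and HSD17B7 0.623 (0.514 to 0.748) and 0.836 (0.729 to 0.955). FDXR, the reductase that feeds CYP11A1, was 71.1 against 19.1 CPM in AF75 and 27.2 against 23.1 CPM in AF76. Of 18 genes of cholesterol synthesis 17 passed the filter and none was past 2-fold in both follicles, and the median log2 ratio was -0.32 in AF75 and 0.22 in AF76.

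Glycolysis (15 of 19 measured genes over the filter), the hypoxia response (12 of 19) and immediate early and stress genes (8 of 13) had none past 2-fold in both follicles, with median log2 ratios of 0.02 and 0.29, of -0.03 and -0.02, and of 0.13 and -0.13. In glycolysis HKDC1, a hexokinase, was 40.3 against 22.7 CPM and 49.3 against 16.0 CPM, and GPI had ratios of 1.31 (1.07 to 1.60) and 1.37 (1.16 to 1.60). Of 14 genes of the ovulatory response 8 passed the filter. ADAMTS1, a protease of the ovulating follicle, had ratios of 2.11 (1.85 to 2.40) and 1.50 (1.31 to 1.70), and PTGES, a prostaglandin E synthase, 1.94 (1.65 to 2.27) and 1.92 (1.70 to 2.16), with 1.43 and 1.11 once the richest member was left out. Of 13 measured cell division genes 3 passed the filter and TOP2A alone was past 2-fold in both follicles. CENPF had ratios of 1.31 (0.678 to 2.30) and 3.73 (2.42 to 5.50), with UMIs in 2 of 32 and 4 of 48 members. ISG15 was the 1 interferon response gene of 8 measured over the filter, at 68.8 against 179 CPM and 127 against 163 CPM.

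The study listed genes of its mural subcluster mGC3 from these same follicles, so that list is not independent evidence. The first 20 genes were taken with the rule genes left out. Of these, 11 were past 2-fold higher in members of both follicles and 15 had intervals above 1 in both, beside 20 and 147 of all 5415 genes. Their median log2 ratios were 1.07 and 1.38. ATP5F1C, a subunit of ATP synthase, was 2582 against 1490 CPM and 3234 against 2053 CPM, and FKBP5, a glucocorticoid-induced chaperone, had ratios of 1.71 (1.42 to 2.05) and 1.68 (1.44 to 1.94).

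Members lay near each other more often than their number would give. In a space of 50 principal components built without the rule genes, SLC24A1 and PLOD2, 3.54% ± 5.86 (SD over 32 members) of the 15 nearest neighbours of a member of AF75 were members, and 6.53% ± 9.48 (SD over 48 members) in AF76. Members were 0.342% and 0.612% of the barcodes. Most members had no member among their 15 neighbours, however, and 11 of 32 and 20 of 48 had at least 1. Barcodes of the SCG2-only set made up 8.54% and 11.5% of the neighbours of members, against 4.53% and 7.47% of all barcodes. Those of the companion-only set made up 12.9% and 7.36%, against 3.81% and 2.91%.

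Between the follicles, the members' own levels could be compared for 2363 genes that reached 50 UMIs in the members of either follicle. Of these 33 (1.4%) were 2-fold or more higher in AF76 and 19 (0.804%) 2-fold or more lower. The members held 421739 UMIs in AF75 and 771093 in AF76, so 50 UMIs stand for a lower level in AF76. A gene could also enter through the follicle where it was high, as BBOX1 did with 6 UMIs in AF75 and 116 in AF76. These counts thus cannot be weighed against each other. Of the 33, 1 was also past 2-fold in the comparison barcodes, and of the 19, 10 were. Members of AF76 had more SCG2 (ratio 1.76, 1.68 to 1.83) and SPP1 (9.12, 6.45 to 13.3), and less ALDH1A2 (0.452, 0.312 to 0.651) and CXCL14 (0.257, 0.219 to 0.299), all of which the rule used.

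BBOX1, the last enzyme of carnitine synthesis, stood at 14.2 CPM (AF75) and 150 CPM (AF76) in members, a ratio of 10.6 (4.71 to 29.4), with UMIs in 6 of 32 and 20 of 48 members. In the comparison barcodes its ratio was 1.38 (1.31 to 1.45). FABP3, a fatty acid carrier, had a ratio of 3.83 (1.96 to 8.33) against 1.04 in comparison barcodes, and HSPB3, a small heat shock protein, 4.19 (3.37 to 5.27) against 1.58. ESM1 had 4.59 (3.37 to 6.41) against 1.11. EMB had no UMI in the members of AF75 and 62 in those of AF76, all in 1 barcode.

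NOV, a matricellular CCN protein, stood at 351 CPM (AF75) and 28.5 CPM (AF76) in members, a ratio of 0.0813 (0.0494 to 0.128), against 0.382 in comparison barcodes. Its UMIs were found in 12 of 32 members of AF75, with 69 of 148 in 1 barcode, and in 5 of 48 of AF76, with 10 of 22 in 1 barcode. DIRAS3, a small GTPase, was 140 and 20.7 CPM, with 42 of 59 UMIs of AF75 in 1 barcode. GCG, the glucagon precursor, was 256 and 57.1 CPM, with 96 of 108 UMIs of AF75 in 1 barcode. In comparison barcodes both genes went the other way, with ratios of AF76 to AF75 of 1.16 for DIRAS3 and 1.55 for GCG. MRO had a ratio of 0.229 (0.171 to 0.303) against 0.392 in comparison barcodes, and APOA1 0.289 (0.256 to 0.327) against 0.361. In AF75 1 barcode held 62 of the 172 MRO UMIs. Of the leading genes, the ratio of AF76 to AF75 within members was 0.635 (0.514 to 0.785) for SLC24A1, 0.849 (0.651 to 1.11) for C12orf75, 1.24 (0.977 to 1.57) for PLOD2 and 1.32 (1.16 to 1.50) for DCLK1.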

How the data were processed

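The deposited matrices hold raw UMI counts per gene and called barcode, which the authors obtained with CellRanger 6.0.2 and the Sscrofa11.1 genome from 1 droplet library per follicle. AF75 held 125409747 UMIs and AF76 127414267. Of 22342 genes, 7356 were listed by identifier alone, and 1042 of these were named from a RefSeq table of the same assembly. The members, gene lists and markers were chosen with earlier results of these data known. UMIs were summed over barcodes in each follicle. Named are the 15 higher and 10 lower genes with the largest mean log2 ratio over both follicles (6 were lower), the markers, list members that were called or of highest CPM, and the 5 largest follicle ratios each way. Other list members, among them those with intervals on 1 side of 1 in both follicles, were named after their values were seen. Doublets were scored with Scrublet in scanpy 1.11.5. Python 3.11.15, numpy 2.4.6, scipy 1.17.1, scikit-learn 1.9.0 and pandas 2.3.3 were used. Ratios and their intervals were tested on simulated Poisson counts of the pools, which held no spread between barcodes. That test thus says nothing of genes with most UMIs in 1 barcode. Names given to the deposited files, not the labels, link the follicles to AF75 and AF76. Alternatives covered the limits, both requirements, each companion, the comparison set, depth, scaling and the filter. Added after seeing the data was the removal of the richest member barcode per gene. Communication, trajectories and oocytes were not analysed here, and a few genes are not reported here.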

Additional observations from a re-analysis of the deposited data

Results flagged for a closer look

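PENK, which encodes the enkephalin precursor, lay on opposite sides of the comparison barcodes in the members of the 2 follicles. In AF75 the ratio was 0.256 (0.213 to 0.304), with UMIs in 22 of 32 members, and in AF76 it was 2.36 (2.15 to 2.57), with UMIs in 16 of 48 members. One member of AF76 held 188 of the 513 UMIs, and the ratio without it was 1.54 (1.38 to 1.72). SELENOP, a plasma selenium carrier, went the other way, with a ratio of 2.61 (1.69 to 3.87) in AF75 and 0.324 (0.234 to 0.438) in AF76. In AF75 13 of its 25 UMIs lay in 1 member, and the ratio without that barcode was 1.32 (0.682 to 2.31). Members held 304 CPM (AF75) and 665 CPM (AF76) of PENK, and 59.3 and 54.5 CPM of SELENOP. In comparison barcodes PENK stood at 1187 and 282 CPM, and SELENOP at 22.7 and 168 CPM. The SELENOP levels of members were thus similar in the 2 follicles, and its opposite ratios went with the comparison barcodes. Neither difference between the follicles was tested, since each follicle is 1 library.

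Both UMI requirements were also met by 6 barcodes of AF76 with over 5000 detected genes, which the gene limit left out of the members. In AF75 3 such barcodes were present.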

How the results depend on the processing

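The 20 higher and 6 lower genes were recounted under 19 alternatives. The count of higher genes was 31 with 40 or more SCG2 UMIs required, 57 with a filter of 5 CPM, 11 with 50 CPM and 185 with no filter, and otherwise 14 to 30. The count of lower genes was less stable. It was 10 without the highest doublet scores, 15 with 40 or more SCG2 UMIs, 15 with 4 or more companion UMIs, 18, 10 and 10 with SPP1, ALDH1A2 and CXCL14 left out, 22 with barcodes thinned to 5000 UMIs, 56, 3 and 3817 with filters of 5 CPM, 50 CPM and none, and 29 with each gene's richest member barcode left out, which by construction lowers every member level. The genes counted changed as well. Of the 20 higher genes 15 were kept with comparison barcodes of like depth, 15 when thinned and 15 with CXCL14 left out. Of the 6 lower genes 2 were kept when thinned and 2 with SPP1 left out. All 20 and 6 were kept with library totals free of mitochondrial, ribosomal protein and rule genes. Members in AF75 numbered 20 with 40 or more SCG2 UMIs, 20 with 4 or more companion UMIs and 18 without CXCL14, and in AF76 20 without SPP1. Of 830 log2 ratios of named genes under the alternatives, 699 stayed within the interval of the value reported, 121 moved outside it in the same direction and 10 changed sign. In AF75 EDNRB went to -1.46 without the highest doublet scores and -0.89 without CXCL14, CAVIN2 to -0.65 with 4 companion UMIs, -0.42 without CXCL14 and -0.15 without its richest barcode, TOP2A to -0.10 without CXCL14 and -0.30 without its richest barcode, and NAV2 to 0.33 with cumulus, CEMIP and cell division barcodes out of the comparison. In AF76 TOP2A went to -0.65 when thinned and -0.23 without its richest barcode. The cause was not tested except for the richest barcodes. No paired analysis was possible because each follicle is 1 library, and leaving out a replicate could not be run for the same reason.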
